A study of Mus musculus with 6 samples.

Results

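Cytosolic calcium sets the contraction of uterine smooth muscle, and the 41 genes described here encode the proteins that let it in, release it from stores, pump it out and read it. They were the rows of the deposited table whose symbol was on a list of calcium entry, release, extrusion and store-operated genes, with the chloride channel gene Ano1 and the calmodulin kinase genes Camk2d and Camk2g. All 41 were found among 24964 gene symbols. Expression was measured by RNA sequencing of uterine tissue around the implantation sites of mice on gestation day 13. Of the 6 libraries, 3 were labelled control and 3 were labelled as having a myometrial knockout (in the muscle layer of the uterus) of PGR, the progesterone receptor. Not given in the sources used here are the Cre line, the deleted part of the gene, the strain, the maternal age and the genotype of the controls. The column name of each library carries its own number, but the labels do not say whether these numbers stand for different animals. The p-values therefore reflect the spread among these 6 libraries, which may be technical.

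In smooth muscle, voltage-gated channels and TRP channels in the plasma membrane admit calcium when the cell is depolarised, stretched or stimulated through receptors. Receptors for inositol trisphosphate (IP3) and ryanodine release calcium from the sarcoplasmic reticulum, and the SERCA pumps return it there. When the store empties, STIM proteins in its membrane open ORAI channels at the cell surface, while plasma membrane pumps and the sodium-calcium exchanger remove calcium from the cell. Calcium bound to calmodulin activates myosin light chain kinase and the CaMKII kinases.

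Levels were deposited as FPKM, fragments per kilobase of gene model scaled to library size, and summed to between 357126 and 377091 per library. Pgr itself lay between 8.33 and 12.1 FPKM in control libraries and between 7.73 and 12.4 FPKM in those labelled deficient, so the groups overlapped. A gene-wide level does not show which exons were read and so does not check the deletion, and the directions below follow the labels alone. Library 3 of each group stood apart, with correlations of 0.982 and 0.983 to the other controls (which correlated at 0.992) and of 0.971 and 0.976 to the other libraries labelled deficient (0.991). Smooth muscle identity was plain in both groups, but its level was not equal. All 10 smooth muscle marker genes fell, with a summed level of 8265 to 10099 FPKM in the controls and 3383 to 3987 FPKM in those labelled deficient. In whole tissue, fewer muscle cells and less RNA per muscle cell cannot be told apart. The part of this shift in the results below was not tested. Among 6 epithelial markers, Krt19 and Cdh1 rose and 0 fell, and the summed level was 586.1 to 647.9 FPKM and 742.2 to 977.8 FPKM. Mast cell markers went from 22.4 to 27.6 FPKM in sum to 2.34 to 4.18 FPKM, with 3 of 4 lower. Among 6 mural cell markers Kcnj8 and Cspg4 fell and 0 rose (sums of 135.5 to 137.3 and 130.1 to 143.3 FPKM). Without regard to the threshold, 2 of these 6 had separate groups with lower values and 2 with higher values. The 6 endothelial, 5 macrophage and 5 fibroblast markers held 0 calls. The fibroblast sums were separate all the same, at 4325 to 4622 FPKM in the controls and 3886 to 3971 FPKM in those labelled deficient. Of the 5 fibroblast genes, 2 had separate groups with lower values and 1 with higher values. Of 5 neuron markers the only 1 tested, Uchl1, fell (6.68 ± 1.43 and 2.27 ± 0.05 FPKM, SD, n = 3 each). The 4 trophoblast markers were all under the filter, with sums of 0.139 to 0.158 FPKM and 0.039 to 0.079 FPKM. Gcm1 and Hand1 were listed at 0 in every library, Prl3d1 was above 0 only in control 3 (0.031 FPKM), and Tpbpa was above 0 in all 6 and separate between the groups (0.158, 0.139 and 0.119 FPKM, then 0.059, 0.079 and 0.039 FPKM).

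In the libraries labelled deficient, 5 of the 41 calcium genes fell. Each belongs to a different role: Casq2 (store buffer), Stim1 (store sensor), Atp2b4 (plasma membrane pump), Cacna1h (T-type channel) and Camk2g (kinase). Only 1 rose, the IP3 receptor gene Itpr3. The largest change was that of Casq2, to 27.3% of its control mean. The other 4 falls left between 53.7% and 62.8% of the control mean, and Itpr3 reached 137.2%. Of the 41 genes, 34 reached a mean of 1 FPKM over the 6 libraries and were tested, and 28 of these did not pass. The test was limma on log2(FPKM + 1) over 12500 genes, with p-values adjusted over all of them by the Benjamini-Hochberg method and a threshold of 0.05. In that fit 3.34% of all genes were called (1.99% lower and 1.34% higher), beside 17.6% of the calcium genes tested. The median log2 difference was -0.10 over the 34 genes and 0.06 over all genes tested. Cacna1h and Stim1 were called in each fit that left out 1 library. They were the only calcium genes called without control 1, without control 2 or without deficient 1, where 0.791%, 0.824% and 1.05% of all genes were called. Without control 3, deficient 2 or deficient 3 the calcium genes called were 5, 4 and 5, beside 2.33%, 1.51% and 4.21% of all genes, and without both libraries numbered 3 they were 8, beside 10.2%. The other fits named below called 1.63% of all genes with no filter, 4.11% with median-of-ratios scaling, 3.75% with quantile normalization and 14.2% with array weights, which lower the weight of libraries that stand apart.

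**Figure D1:**
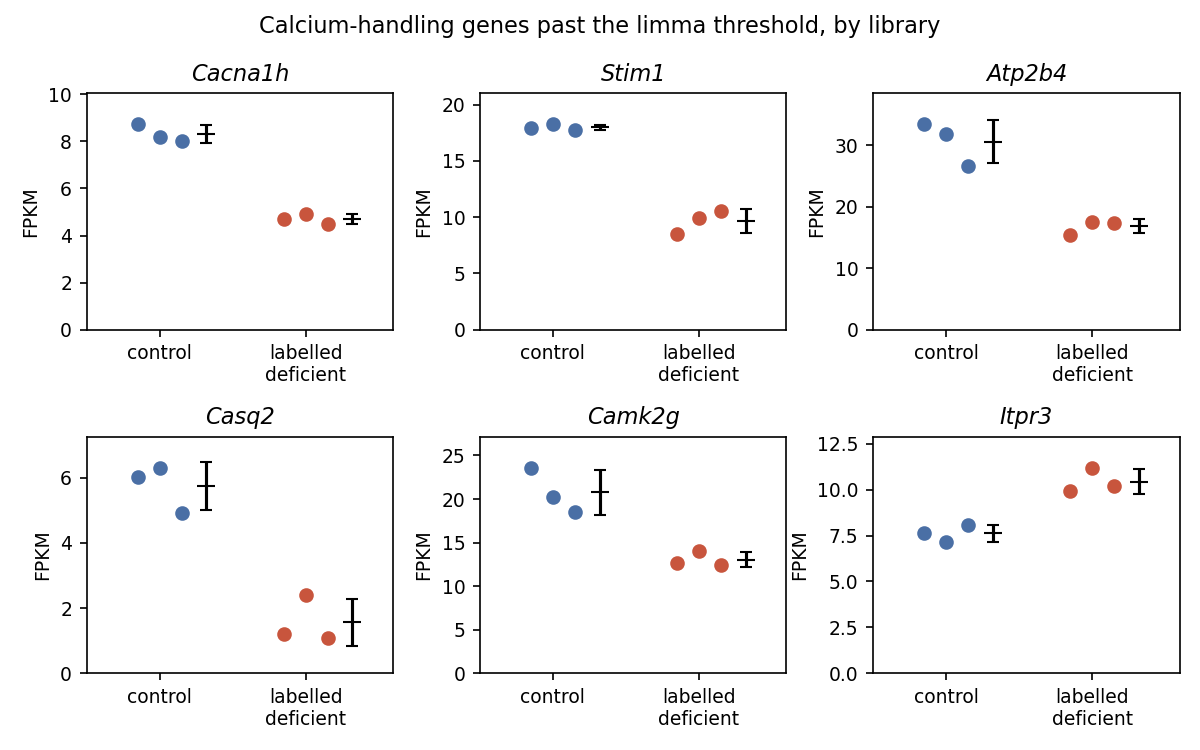
Level in FPKM (vertical axes, from 0) of the 6 genes past the threshold in each control library (blue) and each library labelled deficient (red); the black dash and bar give the mean and SD of 3 libraries. In each panel the groups do not overlap, and Casq2 fell to the smallest share of its control mean, 27.3%.

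Promoter sequences of 4 of these 6 genes were taken from RefSeq (GRCm38.p6) and are shown because genes that fell, such as Casq2 and Stim1, differ widely in promoter composition. Each run is the 250 bases before the RefSeq start, read 5′ to 3′ on the gene's strand, with CG dinucleotides in capitals.
Casq2 (chr3:102086165-102086414, plus strand): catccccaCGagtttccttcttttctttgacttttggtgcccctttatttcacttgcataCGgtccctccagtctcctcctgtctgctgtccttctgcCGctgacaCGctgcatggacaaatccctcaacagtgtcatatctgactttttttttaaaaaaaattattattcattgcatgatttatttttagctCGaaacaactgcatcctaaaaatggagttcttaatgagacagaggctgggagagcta
Atp2b4 (chr1:133753748-133753997, minus strand): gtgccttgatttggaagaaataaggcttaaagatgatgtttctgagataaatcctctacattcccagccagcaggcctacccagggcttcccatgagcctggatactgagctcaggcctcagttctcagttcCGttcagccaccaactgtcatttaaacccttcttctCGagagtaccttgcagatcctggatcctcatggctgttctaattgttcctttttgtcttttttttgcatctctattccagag
Stim1 (chr7:102267569-102267818, plus strand): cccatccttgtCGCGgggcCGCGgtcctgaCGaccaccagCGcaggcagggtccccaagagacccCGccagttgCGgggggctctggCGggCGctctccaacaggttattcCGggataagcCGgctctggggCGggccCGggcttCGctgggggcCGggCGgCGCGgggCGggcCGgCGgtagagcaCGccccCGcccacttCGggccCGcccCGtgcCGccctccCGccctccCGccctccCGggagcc
Itpr3 (chr17:27057054-27057303, plus strand): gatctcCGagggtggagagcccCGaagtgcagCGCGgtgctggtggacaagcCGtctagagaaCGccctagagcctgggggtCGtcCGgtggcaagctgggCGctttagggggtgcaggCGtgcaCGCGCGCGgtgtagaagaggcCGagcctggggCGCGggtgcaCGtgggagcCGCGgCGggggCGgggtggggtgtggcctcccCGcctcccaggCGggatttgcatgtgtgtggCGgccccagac
The stretches of Casq2 and Atp2b4, which fell, are 41.6% and 45.6% G or C and hold 5 and 2 CG dinucleotides. That of Stim1, which also fell, is 78.4% G or C with 31, and that of Itpr3, which rose, is 72% with 25. Over 32851 RefSeq promoters the median was 52.4% (quartiles 45.2% and 61.2%) with 6 CG dinucleotides (quartiles 2 and 16). The Atp2b4 start used by RefSeq lies inside the longer gene model of GENCODE, whose 5′ end on the minus strand is at 133801041. Sequence before that end was not examined, so the printed stretch may not be the main promoter of the gene. Promoters of 32 of the 41 genes, 40 in all, were searched on both strands for the CArG box, bound by serum response factor, and for ACANNNTGT, the core shared by progesterone and glucocorticoid response elements. The window was 300 bases, 250 before the start and 50 after it. A CArG box was found in 1 of the 40 (2.5%, beside 1.63% of all promoters), that of Trpc6, where CCTTTAAAGG lies at chr9:8544020-8544029. ACANNNTGT was found in 2 of the 40 (5%, beside 6.85%). These were a promoter of Cacna1c, with ACAGCCTGT at chr6:119196612-119196620 on the minus strand, and that of Pln, with ACAAAGTGT at chr10:53337547-53337555. Cacna1c and Pln did not pass the test and Trpc6 was below its filter, and a match is only a match of letters. No promoter entry was found for Cacna1h or Camk2g, so these called genes were not searched.

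Among the 10 voltage-gated channel genes, 1 fell, 0 rose, 7 did not pass and 2 were below the filter. Cacna1h encodes a pore-forming subunit of T-type channels, which open at small depolarisations, and lies on chromosome 17 from 25374285 to 25433783 (GRCm38). Its level was 8.73, 8.18 and 8.02 FPKM in the controls and 4.70, 4.90 and 4.50 FPKM in those labelled deficient. Every control was above every library labelled deficient, and the spread within each group was small (8.31 ± 0.37 and 4.70 ± 0.20, SD, n = 3). The log2 difference was -0.71 with a standard error of 0.06 (limma adjusted p = 0.0048, at most 0.033 with any 1 library left out). On the opposite strand, 158 bases of its exons overlap Tpsg1, which was at 0.259 FPKM or less.

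Cacna1g, the other T-type pore gene of this list, was at 7.04, 6.30 and 6.67 FPKM and at 7.98, 7.48 and 8.25 FPKM. Here the groups did not overlap in the other direction, yet the difference of 0.22 (SE 0.07) did not pass (limma adjusted p = 0.15). Cacna1h therefore made up between 54.6% and 56.5% of the summed T-type level in control libraries and between 35.3% and 39.6% in those labelled deficient. An exact two-sided permutation test of that share gave p = 0.1, the smallest that 3 libraries against 3 allow.

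Cacna1c, the pore of the L-type channel that carries most of the calcium current of smooth muscle, was at 6.81, 5.81 and 6.17 FPKM in the controls. In the libraries labelled deficient it was at 4.02, 5.41 and 5.12 FPKM, or 77.4% of the control mean. The groups did not overlap, but the log2 difference of -0.32 (SE 0.11) did not pass (limma adjusted p = 0.18). Its neuroendocrine relative Cacna1d lay between 0.604 and 0.789 FPKM, under the filter. Of its exon bases, 589 overlap Chdh on the opposite strand, a gene at up to 23.9 FPKM.

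The beta subunits bring the pore to the membrane. Cacnb3 was at 9.499, 9.64 and 9.65 FPKM (controls) and 10.3, 12.4 and 12.01 FPKM (labelled deficient). All 3 of the latter were above the controls, and the difference of 0.24 (SE 0.08) did not pass (limma adjusted p = 0.16). Cacnb1 and Cacnb2 differed by -0.24 and -0.28 with overlapping groups. Cacnb1 passed only without both libraries numbered 3 (-0.45, limma adjusted p = 0.039). The share of Cacnb3 in the 3 beta subunit genes was between 53.2% and 57.5% in control libraries and between 64.2% and 65.6% in those labelled deficient. Cacna2d1, an auxiliary subunit, and Cacna1a, the pore of P/Q-type channels, differed by -0.18 and -0.10. Cacna2d2 stayed at 0.137 FPKM or less.

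None of the 5 TRP channel genes of this list that were tested passed, whereas Trpv2, a TRP channel gene of the wider list below, did. Trpm4, a calcium-activated cation channel that depolarises the membrane, was at 8.33 ± 1.07 and 9.61 ± 0.92 FPKM, and Trpv4, a channel opened by osmotic and mechanical stimuli, at 8.05 ± 1.41 and 9.83 ± 2.24 FPKM (SD, n = 3 each). Their differences were 0.19 and 0.25 on the log2 scale. The receptor-operated channel genes Trpc1 and Trpc4 differed by -0.14 and -0.18, and Trpm7, a channel fused to a kinase, by -0.02. Trpc6 was under the filter at 0.812 ± 0.087 and 0.717 ± 0.076 FPKM. Groups overlapped for all 6 TRP genes of this list.

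**Figure D2:**
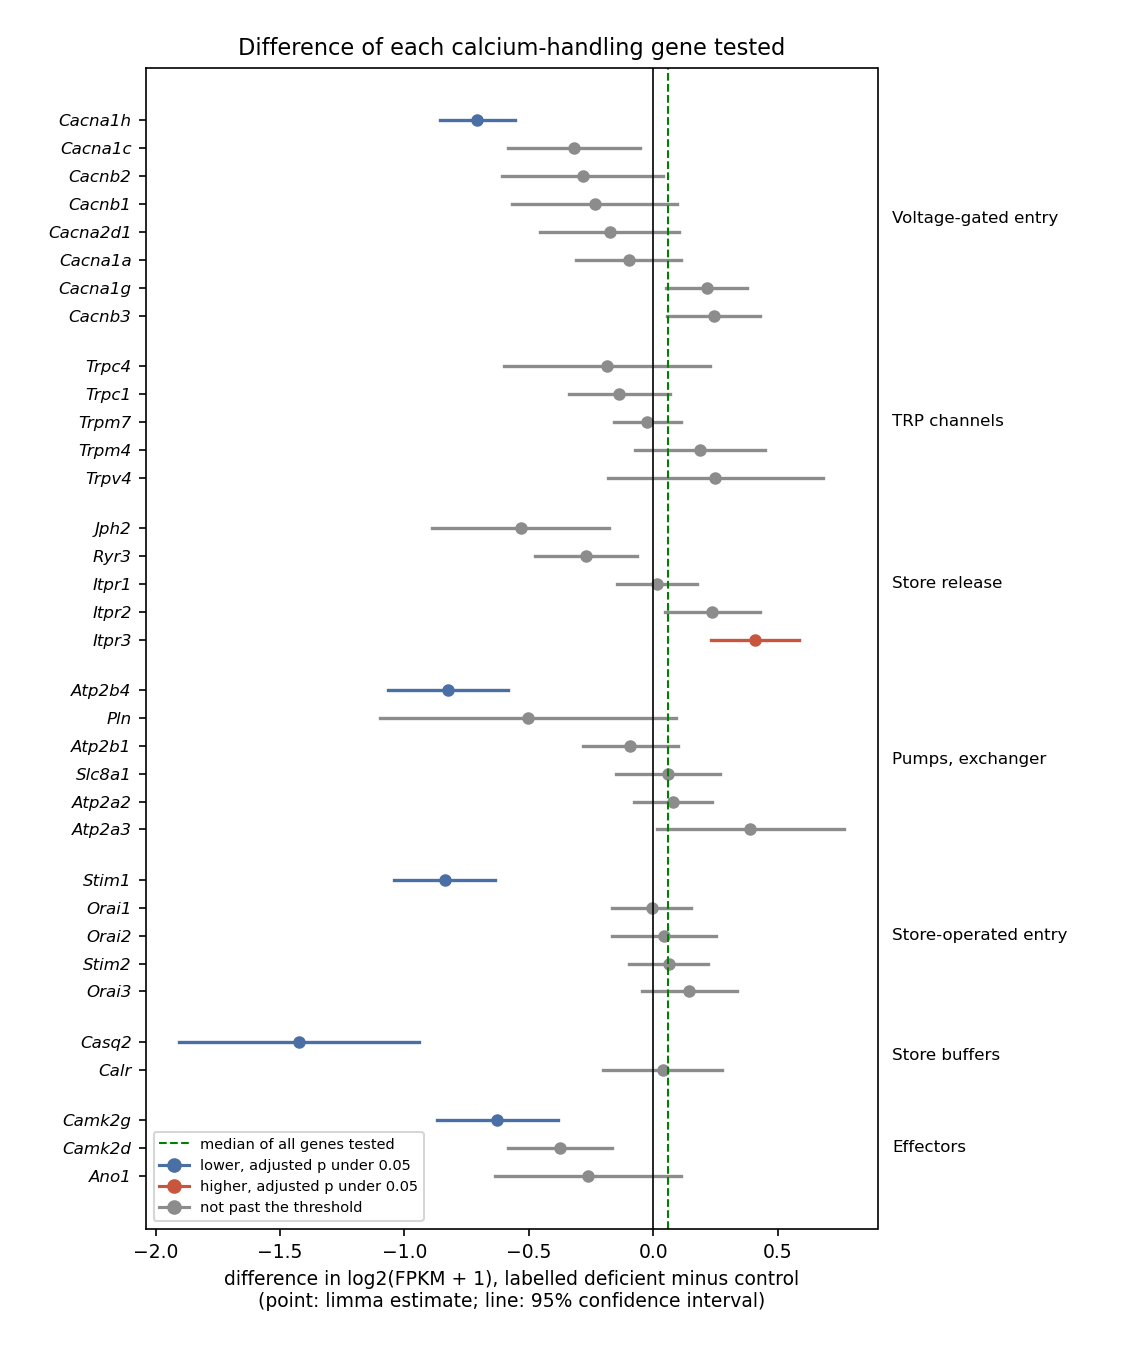
Difference in log2(FPKM + 1), labelled deficient minus control, of the 34 genes tested, by role; points are limma estimates, lines 95% confidence intervals, blue and red mark genes past the threshold. Each of 5 roles holds 1 gene that fell, and the dashed line is the median of all genes tested, 0.06.

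In the group that releases stored calcium, 1 gene rose, 0 fell, 4 did not pass and 2 were below the filter. Itpr3 (chromosome 17, 27057304 to 27122223), a receptor subunit opened by IP3 and abundant in epithelia, was at 7.63, 7.13 and 8.10 FPKM in the controls. The libraries labelled deficient were all higher, at 9.96, 11.2 and 10.2 FPKM. The log2 difference was 0.41 with a standard error of 0.07 (limma adjusted p = 0.040). This call was the least secure of the 6. It was lost in every fit that left out 1 library (adjusted p up to 0.15), with median-of-ratios scaling (0.071), with quantile normalization (0.072) and with no filter (0.065), although the difference stayed positive in all of them. Itpr3os, which overlaps 233 of its exon bases on the opposite strand, was listed at 0. The epithelial markers named above moved in the same direction, and their part in the rise was not tested.

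Neither of the other IP3 receptor genes passed. Itpr1, the form prominent in smooth muscle, was at 5.76, 5.82 and 5.85 FPKM and at 6.30, 5.46 and 5.93 FPKM, with overlapping groups and a 95% confidence interval of the log2 difference from -0.14 to 0.18. Itpr2 was at 1.03, 1.12 and 1.01 FPKM (controls) and 1.31, 1.47 and 1.51 FPKM (labelled deficient). Its groups were separate, and the difference of 0.24 did not pass (limma adjusted p = 0.17). Summed over the 3 receptor genes, the level was 14.5 ± 0.5 and 17.8 ± 0.3 FPKM (SD, n = 3 each). Itpr1 held between 39.1% and 41.4% of it in control libraries and between 30.1% and 35.9% in those labelled deficient.

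Ryanodine receptors were scarce. Ryr3, the ryanodine receptor gene with the highest level here, was at 1.63, 1.51 and 1.41 FPKM (controls) and 1.14, 1.17 and 0.945 FPKM (labelled deficient). The groups were separate, but the difference of -0.27 (SE 0.09) did not pass (limma adjusted p = 0.15), except narrowly with array weights (-0.27, 0.0498). Of the exon bases of Ryr3, 916 overlap Aven on the opposite strand (up to 6.20 FPKM). Ryr2, the cardiac form, was at 0.076, 0.044 and 0.047 FPKM and at 0.124, 0.109 and 0.163 FPKM, and Ryr1, the skeletal form, at 0.060 FPKM or less. The groups of Ryr2 were separate, higher under the deficient label, while those of Ryr1 overlapped. Both were under the filter, and neither was tested.

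Jph2 encodes junctophilin 2, which holds the plasma membrane close to the sarcoplasmic reticulum. It was at 45.3, 41.3 and 34.3 FPKM (controls) and 25.6, 32.9 and 24.3 FPKM (labelled deficient). The lowest control was only just above the highest library labelled deficient. Its log2 difference of -0.53 (SE 0.15) did not pass (limma adjusted p = 0.12), except with array weights (-0.63, 0.023).

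Among 7 genes for pumps, their small regulators and the exchanger, 1 fell, 0 rose, 5 did not pass and 1 was below the filter. Atp2b4 (chromosome 1, 133699457 to 133801041), a calmodulin-stimulated calcium pump of the plasma membrane, was at 33.4, 31.8 and 26.6 FPKM in the controls. Its level was 15.5, 17.5 and 17.4 FPKM in those labelled deficient, all well below the lowest control. The log2 difference was -0.82 with a standard error of 0.10 (limma adjusted p = 0.014). It was no longer called without control 1, control 2 or deficient 1 (adjusted p up to 0.069). Atp2b1, the widely expressed pump of the same family, was at 19.4 ± 1.2 and 18.1 ± 1.3 FPKM (SD, n = 3 each), with a 95% confidence interval of the log2 difference from -0.28 to 0.10. The ratio of Atp2b4 to Atp2b1 went from between 1.48 and 1.68 to between 0.834 and 1.05, so Atp2b4 was the more abundant of the pair in every control and in 1 library labelled deficient, deficient 2.

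Atp2a2, the SERCA pump of muscle stores, was the most abundant transport gene of the list, at 54.8, 54.6 and 56.3 FPKM and at 57.4, 55.7 and 62.4 FPKM. The groups overlapped, and the 95% confidence interval of the log2 difference ran from -0.08 to 0.24. Atp2a3, a SERCA form of blood, endothelial and epithelial cells, was at 4.62, 4.67 and 5.15 FPKM (controls) and 6.89, 8.29 and 5.03 FPKM (labelled deficient). Deficient 3 lay among the controls, and the gene passed only where that library was left out (0.56, limma adjusted p = 0.042), where both libraries numbered 3 were (0.60, 0.035) or with array weights (0.49, 0.036). Phospholamban (Pln), which restrains SERCA, was at 1.56, 2.88 and 1.19 FPKM and at 0.591, 1.00 and 1.41 FPKM, with overlapping groups and a wide interval from -1.10 to 0.09. Of its exon bases, 1644 overlap Gm47644 on the opposite strand. Sarcolipin (Sln), the related regulator of striated muscle, was listed at 0 in all 3 controls. The others held 0.104, 0.052 and 0.052 FPKM, too low for a comparison. Slc8a1, the sodium-calcium exchanger, was at 3.20 ± 0.39 and 3.38 ± 0.14 FPKM (SD, n = 3 each).

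Of the 5 genes of store-operated entry, 1 fell, 0 rose and 4 did not pass. Stim1 (chromosome 7, 102267806 to 102437319) senses the calcium level of the store and gates ORAI channels, and it was at 17.9, 18.2 and 17.8 FPKM in the controls. The libraries labelled deficient held 8.48, 9.93 and 10.6 FPKM. The controls had an SD of 0.24 FPKM, and all libraries labelled deficient were far below them. Its log2 difference was -0.84 with a standard error of 0.08 (limma adjusted p = 0.0071, at most 0.045 with any 1 library left out).

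Stim2, the sensor more responsive to small drops of store calcium, was at 7.71, 8.41 and 7.82 FPKM and at 8.84, 8.37 and 7.93 FPKM. These groups overlapped, and the 95% confidence interval of the log2 difference was -0.10 to 0.22. Stim1 was thus between 2.17 and 2.32 times as abundant as Stim2 in control libraries and between 0.959 and 1.33 times in those labelled deficient. The ORAI channel genes did not pass. Orai1 was at 9.36 ± 0.49 and 9.31 ± 0.42 FPKM, Orai3 at 12.9 ± 0.8 and 14.4 ± 1.1 FPKM (SD, n = 3 each), and Orai2 at 3.10 ± 0.13 and 3.24 ± 0.40 FPKM. Their log2 differences were -0.01, 0.15 and 0.04. The ratio of Stim1 to Orai1 was 1.92 ± 0.07 in the controls and 1.04 ± 0.08 in those labelled deficient (SD, n = 3 each).

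**Figure D3:**
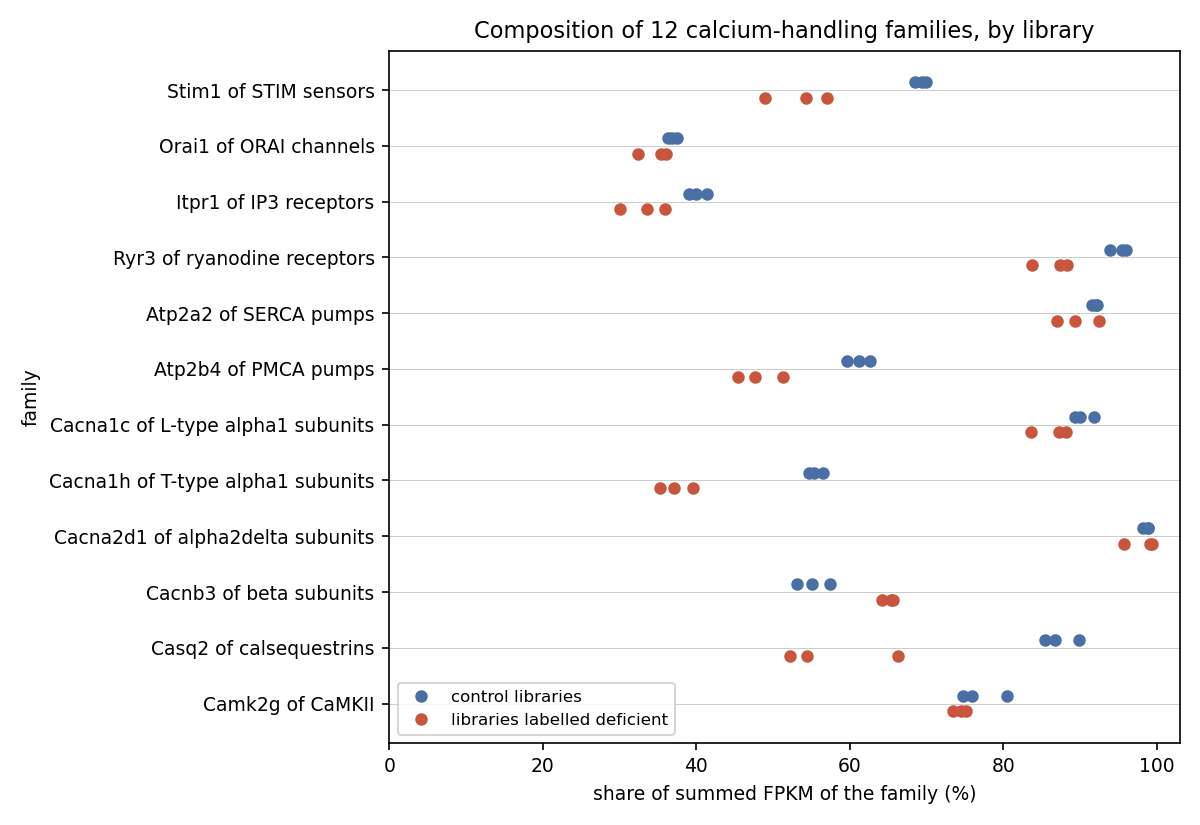
Share (%) of one gene in the summed FPKM of its family, for 12 families, in each control library (blue) and each library labelled deficient (red). Groups are separate for 9 families; the mean share of Stim1 in the STIM level is 69.3% in the controls and 53.4% in the others, and that of Cacnb3 is 55.2% and 65.1%.

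Of the proteins that bind calcium inside the store, Casq2 (chromosome 3, 102086415 to 102146514), the calsequestrin of cardiac and smooth muscle, had the largest log2 difference of the 34 genes. It was at 6.02, 6.31 and 4.91 FPKM (controls) and 1.21, 2.40 and 1.09 FPKM (labelled deficient). The highest of the latter was below the lowest control. The means were 5.74 ± 0.74 and 1.57 ± 0.73 FPKM (SD, n = 3 each). On the log2 scale they differed by -1.42 (SE 0.20), with a limma adjusted p of 0.020. The call was lost without control 1, control 2 or deficient 1 (adjusted p up to 0.098). Casq1, the calsequestrin of fast skeletal muscle, lay between 0.551 and 1.22 FPKM with overlapping groups and was not tested. Calr, calreticulin, the general calcium-binding chaperone of the endoplasmic reticulum, was the most abundant gene of the list, at 817.8 ± 35.8 and 842.3 ± 83.4 FPKM (SD, n = 3 each). Its log2 difference of 0.04 did not pass.

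Striated muscle genes bear on these members, since Casq1, Casq2, Ryr1 and Sln are also expressed there. Of 12 such markers 5 were tested, of which Ckm, Acta1 and Tnni2 fell, 0 rose, and Tnnt3 (48.3% of its control mean) and Mylpf (156.9%) did not pass, and the summed level was 145.5 to 230.6 FPKM in the controls and 55.1 to 64.1 FPKM in those labelled deficient. Myh4 and Myh6, myosins of fast skeletal and of cardiac muscle, were at 0.013 FPKM or less in every library, and titin (Ttn) at 0.004 FPKM or less. Not every marker was lower: the groups of Mylpf, a myosin light chain, were separate at 1.26 ± 0.13 and 1.98 ± 0.24 FPKM (SD, n = 3 each). Those of the skeletal myosins Myh1 and Myh2, both under the filter, were also separate and higher, with Myh2 at 0.018, 0.018 and 0.004 FPKM in the controls and 0.304, 0.421 and 0.027 FPKM in the others. The part of this shift in the levels of Casq1 and Casq2 was not tested.

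The effectors comprised 2 kinase genes and a channel. Camk2g (chromosome 14, 20734875 to 20794088), the CaMKII gene with the higher level here, was at 23.6, 20.2 and 18.5 FPKM (controls) and 12.6, 14.04 and 12.5 FPKM (labelled deficient). The groups were separate, and the log2 difference was -0.63 with a standard error of 0.10 (limma adjusted p = 0.030). It was called with 1 library left out only where that was control 3, reaching an adjusted p of 0.12 without deficient 1, and it was not called with no filter (0.051). Camk2d was at 5.72, 6.40 and 6.24 FPKM and at 4.32, 5.08 and 4.11 FPKM. Its groups were also separate, and the difference of -0.37 (SE 0.09) did not pass (limma adjusted p = 0.079), except with median-of-ratios scaling (-0.43, 0.045), quantile normalization (-0.43, 0.046) or array weights (-0.35, 0.034). The summed CaMKII level was 26.9 ± 2.3 and 17.5 ± 1.4 FPKM (SD, n = 3 each), while the share of Camk2g, 77.1% ± 3.0 and 74.4% ± 0.9, overlapped. Ano1, a calcium-activated chloride channel that depolarises smooth muscle and interstitial cells, was at 6.15, 5.59 and 8.45 FPKM and at 4.65, 6.12 and 5.44 FPKM. The groups overlapped, and its difference of -0.26 did not pass. The 3 interstitial cell markers, Ano1 among them, summed to 7.92 to 10.2 FPKM and 6.31 to 8.17 FPKM, with 0 of the 2 tested called.

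**Figure D4:**
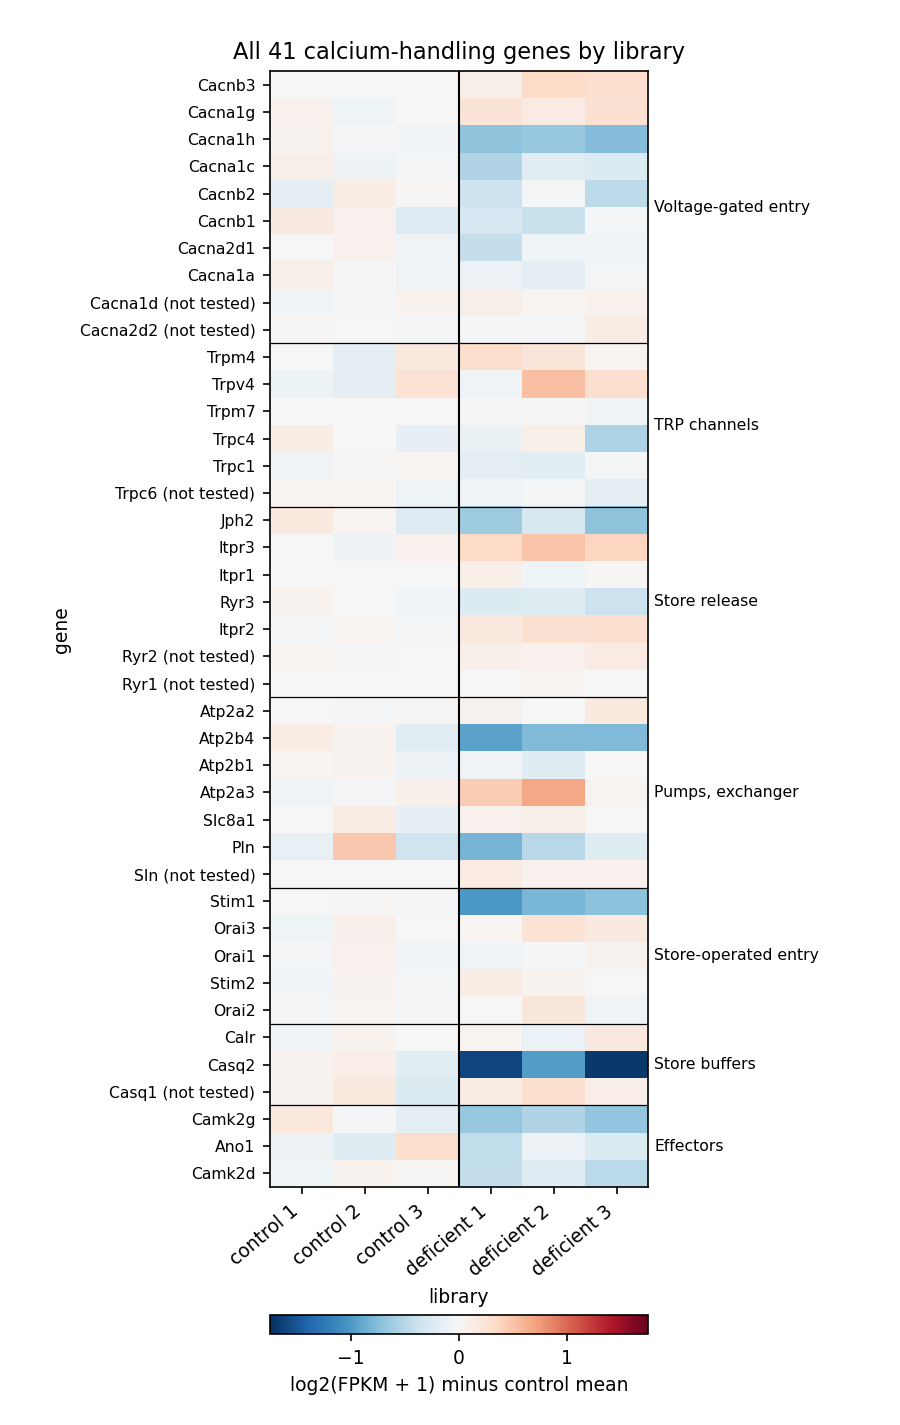
log2(FPKM + 1) minus the control mean (colour, blue lower, red higher) for all 41 genes (rows, by role) in the 6 libraries (columns). Casq2, Stim1, Atp2b4, Cacna1h and Camk2g are blue in each library labelled deficient, while Atp2a3 is pale red in deficient 1 and 2 and near white in deficient 3.

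Separation without a passing test was common. Of the 34 genes, 13 had groups that did not overlap (38.2%), 9 lower and 4 higher, beside 29% of all genes tested, 8.16% lower and 20.8% higher. All 6 called genes are among the 13.

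Family composition was compared for 12 families, and the exact permutation p was 0.1 for each of the 9 with separate groups. Adjusted over the 12 by the Benjamini-Hochberg method it was 0.13, so no share passed, and none could in this design. These shares use the same values as the levels above. The largest differences in share were those of Casq2 among the calsequestrins (87.4% ± 2.3 and 57.6% ± 7.6), Cacna1h among the T-type pores (55.5% ± 0.9 and 37.3% ± 2.1), Stim1 (69.3% ± 0.7 and 53.4% ± 4.1) and Atp2b4 (61.2% ± 1.5 and 48.1% ± 2.9; controls first, SD, n = 3 in each case). In each of these 4 families the summed level was also lower in every library labelled deficient than in any control, 18.0 ± 0.6 against 26.0 ± 0.6 FPKM for the STIM sensors and 34.9 ± 1.5 against 49.98 ± 4.65 FPKM for the pumps of the plasma membrane.

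A wider list of 101 other calcium genes held 66 that were tested, of which 3 fell, 0 rose and 63 did not pass, with a median log2 difference of -0.04. Over all genes tested, 3.34% were called, 1.99% lower and 1.34% higher. Of the 66, 18 had separate groups with lower values and 10 with higher values, beside 8.16% and 20.8% of all genes tested. The list covers other channels, mitochondrial uptake, calmodulins, calcineurin and calcium-binding proteins. The stretch-sensitive TRP channel gene Trpv2 went from 13.96 ± 1.41 to 8.20 ± 1.11 FPKM (limma adjusted p = 0.029). Rcan2, a calcineurin regulator, went from 1.71 ± 0.08 to 0.770 ± 0.204 FPKM (limma adjusted p = 0.035), each SD with n = 3. Both lost their call without control 1, control 2 or deficient 1. Trpv2 also lost it without deficient 3, and Rcan2 without control 3 or deficient 2.

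The smooth muscle markers give a scale for these changes. Of the 10, Actg2 was at 21.2% of its control mean, Des at 34.7%, Tagln at 44.4%, Cnn1 at 45.3% and Synpo2 at 45.8%. The other 5 lay between 50.9% and 59.8%, namely Acta2, Smtn, Myh11, Mylk and Lmod1. The calcium genes that fell were Stim1 at 53.7%, Atp2b4 at 54.9%, Cacna1h at 56.6%, Camk2g at 62.8% and Casq2 at 27.3%. Among those that did not pass, Pln was at 53.2% (with overlapping groups), Jph2 at 68.5%, Ryr3 at 71.7% and Camk2d at 73.6%. Cacna1c was at 77.4%, Ano1 at 80.2%, Itpr1 at 101.5%, Slc8a1 at 105.3% and Atp2a2 at 105.9%, and these did not pass either. Whether any gene differed from the markers was not tested.

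**Figure D5:**
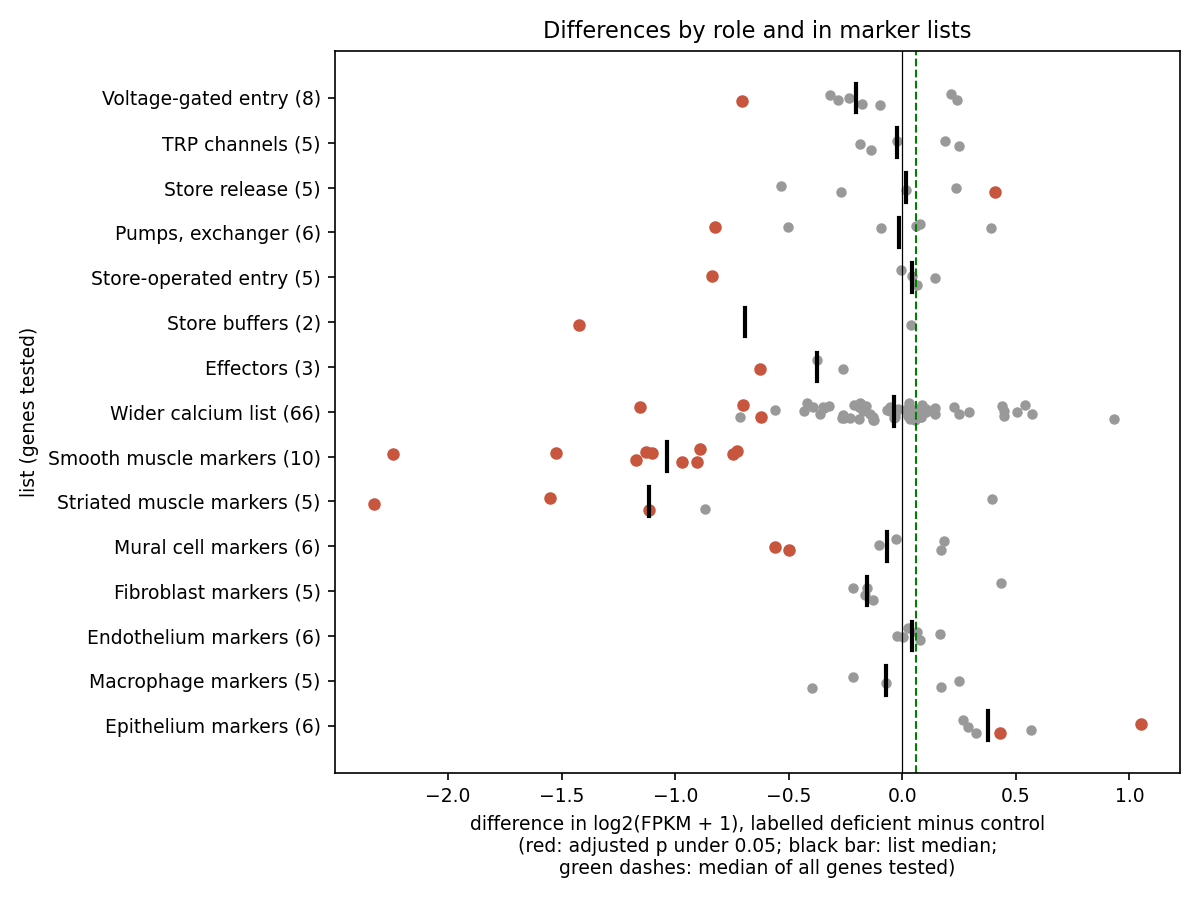
Difference in log2(FPKM + 1), labelled deficient minus control, of the genes tested in each role, in the wider calcium list and in marker lists (rows); red points passed the threshold and black bars are list medians. All 10 smooth muscle markers lie below 0 with a median of -1.04. The 3 effectors also lie below 0, and the other calcium roles spread on both sides of 0.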

How the data were processed

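Expression values in FPKM were deposited by the authors for 24964 gene symbols, and each of the 6 columns carries the name that the labels give to a sample. RNA was isolated with TRIzol, per the labels' protocols. The submitters' processing notes name cutadapt 2.7, STAR 2.7.0f, DESeq2 1.24.0 and build mm10, without role or order. Counting program, annotation, strand setting and handling of shared reads: not given in the sources used here. Overlapping and antisense genes may share reads. Depth per library is unknown. Between 0.06 and 0.5 FPKM, the ratio of each library to control 1 piled up at 1 or 1.01, so a single read weighs about equally in all columns.

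limma 3.58.1 in R 4.3.3 (lmFit, eBayes with an intensity trend) was run on log2(FPKM + 1), coded as labelled deficient minus control, for the 12500 genes whose mean reached 1 FPKM. This scale understates changes of low genes. Family shares were compared by exact permutation in Python 3.11.15. Code was tested on simulated data. Positions and overlaps came from GENCODE M21 (GRCm38). The 41 genes, lists and rules were chosen with earlier results of these data known. Values in every library are given for genes past the threshold or with separate groups, and others by mean, range or count, at most 2 per role by highest level; of the other lists, only genes past the threshold or defining markers near 0 are named. Genes given in full beyond this rule, such as those that share a family with a called gene, were chosen after their values were seen. Alternatives were 17 in number, covering pseudocount, filter, scaling, variance model, replicate block and libraries left out. One gene of the wider calcium list is counted but not reported here by name.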

Additional observations from a re-analysis of the deposited data

How the results depend on the processing

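Stim1 and Cacna1h stayed lower and past the threshold under all 17 alternatives, and none of the 6 called genes changed sign in any (Casq2 was below the stricter filter). The number of calcium genes called was 10 with array weights (8 lower and 2 higher, with 1770 genes called in all), 4 lower and 0 higher with no filter, and 6 lower and 0 higher under each of 2 scalings (median-of-ratios and quantile), where 7 genes of the wider calcium list were called (18 with array weights). Rescaling to equal sums gave 218 genes higher and 211 lower over the whole table, beside 168 and 249 as reported. The split was 123 and 391 by median-of-ratios scaling, and quantiles gave 131 and 338. With 1 library left out, between 2 and 5 calcium genes were called (2 to 5 lower, 0 to 1 higher), between 0 and 4 of the wider list, and between 99 and 525 of all genes. Without both libraries numbered 3, the counts were 8 (6 lower and 2 higher), 7 and 1275. With the replicate block, 143 genes (1.14%), 3 calcium genes (3 lower and 0 higher: Cacna1h, Casq2 and Stim1) and 2 genes of the wider list were called. Replicate numbers showed no pairing (correlations of same-numbered deviations of -0.14, 0.08 and -0.13), and libraries did not each correlate best with their own number. The median of the calcium genes was -0.0063 with no filter and reversed to 0.0050 with a minimum mean of 5 FPKM, over 41 and 22 genes. The cause of these shifts was not tested, apart from the fewer libraries or genes in some fits.

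Signs turned only for genes that did not pass. With median-of-ratios scaling, Calr was at -0.032, Itpr1 at -0.044, Orai2 at -0.011 and Stim2 at -0.00067. Quantile normalization gave Itpr1 -0.037, Orai2 -0.016 and Slc8a1 -0.00079, and rescaling to a sum gave Orai1 0.037 and Trpm7 0.018. With 1 library left out, Calr ranged from -0.031 to 0.11, Itpr1 from -0.026 to 0.063, Orai1 from -0.039 to 0.032, Orai2 from -0.033 to 0.093 and Slc8a1 from -0.0085 to 0.13, and the difference in the share of Cacna2d1 from -1.25 to 0.57 percentage points. Without both libraries numbered 3, Calr was at -0.031 and that share at 0.68 points. Without a count per gene, no depth limit could be set for low genes such as Sln, Ryr1 and Ryr2.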
